A study of Homo sapiens with 2 samples.

Results

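The genes described here encode the ATG8 family and the main receptors that select cargo for autophagy. They were taken by symbol from the deposited gene table: GABARAP, GABARAPL1, GABARAPL2, MAP1LC3A, MAP1LC3B and MAP1LC3C of the ATG8 family, and the receptor genes SQSTM1, NBR1, OPTN and CALCOCO2. Each symbol matched 1 row, which gave 10 of 50868 genes. Messenger RNA was sequenced from 1 sorafenib-resistant culture and 1 parental culture, both labelled HepG2, a human liver cancer line. The resistant culture had been grown in sorafenib, a kinase inhibitor used against liver cancer, from 2.5 µM upwards in steps of 0.5 µM to 7 µM, and the parental culture was untreated and labelled wild type. The labels do not say whether the resistant culture is a clone. With 1 library per group, no value has a replicate check, no test of the conditions was possible, and every interval covers counting error only.

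Autophagy encloses cytoplasm in a double membrane, the autophagosome, which then fuses with the lysosome. ATG8 proteins are small ubiquitin-like proteins that ATG4 proteases trim to a glycine and that the conjugation enzymes attach to phosphatidylethanolamine in the growing membrane. Cargo receptors bind ubiquitin or other marks on the cargo with 1 part and ATG8 proteins with another, through a short LC3-interacting motif, and are degraded together with the cargo. In the liver, loss of autophagy leads to a build-up of SQSTM1 protein, which is known for its inclusions in liver cancer.

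The counts summed to 16811907 in the resistant and 18067146 in the parental library. Of 12 hepatocyte markers, 10 had 0 counts in both libraries (among them ALB, AFP, APOA1, APOB and TTR), and HNF4A had 2 counts in each. All 12 together had 4 counts in the resistant and 3 in the parental library, so the labelled cell type had no support in its markers. Keratin genes of simple epithelia were abundant, with KRT8 at 817 CPM in the resistant and 799 CPM in the parental library, whereas EPCAM had 0 counts in both. KRT18 was higher in the resistant library, at 1.23-fold (1.19 to 1.26), and CDH1 had 20 counts in the resistant and 5 in the parental library. CPM stands for counts divided by the library total, adjusted by TMM, and set to a common depth. The 8 fibroblast markers summed to 404 CPM in the resistant and 397 CPM in the parental library, with COL1A2 and PDGFRA at 0 in both. COL3A1 and COL1A1 held most of that sum, and single markers differed, as LUM had 216 counts in the resistant and 93 in the parental library (2.51-fold, 1.96 to 3.24) and COL3A1 was at 0.896-fold (0.855 to 0.939). The 4 endothelial markers summed to 4.71 CPM in the resistant and 1.82 CPM in the parental library, and KDR was at 0 in both. That difference lay in CDH5, with 72 counts in the resistant and 20 in the parental library, while PECAM1 had 7 and 8 counts and VWF 0 and 5. Of 6 blood cell markers only CD68 had counts, 156 in the resistant and 98 in the parental library. The part of these markers in the results was not tested.

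The coding ends of the ATG8 genes are shown because they carry the site of ATG4 cleavage and tell the family members apart. The stretches were read from GENCODE 29 transcripts (GRCh38), 5′ to 3′ on the coding strand, and end with the stop codon. The codon of the glycine at which the protein is trimmed is in capitals.
GABARAP: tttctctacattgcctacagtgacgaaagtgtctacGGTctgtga
GABARAPL1: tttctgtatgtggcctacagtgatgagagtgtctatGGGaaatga
GABARAPL2: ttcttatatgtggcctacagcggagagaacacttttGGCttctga
MAP1LC3A: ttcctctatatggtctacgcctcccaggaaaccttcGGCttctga
MAP1LC3B: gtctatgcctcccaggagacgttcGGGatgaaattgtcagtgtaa
MAP1LC3C: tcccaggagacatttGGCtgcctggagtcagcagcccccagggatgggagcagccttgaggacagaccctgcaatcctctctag
The stretch of GABARAPL1 lies at chr12:10221808-10221852 on the plus strand and that of MAP1LC3B at chr16:87403053-87403097 on the plus strand. Behind the glycine, 1 codon follows in GABARAP, GABARAPL1, GABARAPL2 and MAP1LC3A, 5 follow in MAP1LC3B and 21 in MAP1LC3C.

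Over the whole coding sequence the listed ATG8 genes differ from each other at many positions. GABARAP and GABARAPL1, the closest pair of the GABARAP branch, were identical at 76.8% of 354 aligned coding bases, and their main transcripts share no exact run longer than 14 bases. MAP1LC3A and MAP1LC3B were identical at 73.5% of 366 bases. Near-identical copies outside the list lie closer. MAP1LC3B2, a retrotransposed copy on chromosome 12, was identical to MAP1LC3B at 99.5% of 378 bases, with a shared run of 307 bases, and the pseudogene GABARAPL3 was identical to GABARAPL1 at 95.5% of 354 bases. Of all 50-base windows of the main transcript, 4.30% in GABARAPL1, 10.5% in MAP1LC3B and 0.0275% in CALCOCO2 also occur in a transcript of another gene. For GABARAP this share was 72.6%, in transcripts of AC120057.2, AC120057.3 and AC096533.1, and for SQSTM1 it was 50.7%, in MRNIP, which overlaps it on the opposite strand.

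In 3 of the receptor genes the LC3-interacting motif, an aromatic residue followed 3 positions later by an aliphatic one, is printed because it is the part that binds the ATG8 proteins above. The 4 codons of the motif are in capitals, and the stretch of OPTN is joined across an intron.
SQSTM1: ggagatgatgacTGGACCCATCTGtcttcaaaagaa
NBR1: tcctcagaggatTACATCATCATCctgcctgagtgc
OPTN: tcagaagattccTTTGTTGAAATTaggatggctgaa
The stretches lie at chr5:179833617-179833652, chr17:43200322-43200357 and chr10:13112603-13116269, all on the plus strand. CALCOCO2 uses a motif without an aromatic residue and is not shown.

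GABARAPL1, which encodes an ATG8 protein that works late in autophagosome formation and fusion, had the largest difference among the members. The gene (ENSG00000139112; chromosome 12, 10212458 to 10223130, plus strand, GRCh38) had 1509 counts in the resistant and 3537 in the parental library, or 90.0 and 195 CPM. It was thus at 0.461-fold (95% interval 0.434 to 0.490), or 2.17-fold lower (2.04 to 2.30), with a log2 ratio of CPM plus 1 of -1.11. Of 8 measured members 1 was lower and 0 were higher by at least 2-fold, in a comparison in which 0.994% of 14686 measured genes were lower and 1.31% higher by that much, or 2.3% in either direction. Genes under 1 CPM in both libraries were not counted as measured. Only 0.735% of measured genes had a log2 ratio as low or lower. The authors' deposited table gave GABARAPL1 a log2 fold change of -1.13 and called it DOWN, a call it made for 1.03% of the genes it compared, and it called no other member. In bulk samples such as these, fewer cells of a type and less RNA per cell cannot be told apart.

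Neither an overlapping gene nor the pseudogene held counts beside GABARAPL1. GABARAPL1-AS1, which overlaps it on the opposite strand, had 0 counts in both libraries, as had GABARAPL3. Adding either of these could therefore not change the log2 ratio of GABARAPL1. Transcripts of AC018946.2 also share sequence with GABARAPL1, and the part of its reads was not tested.

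**Figure D1:**
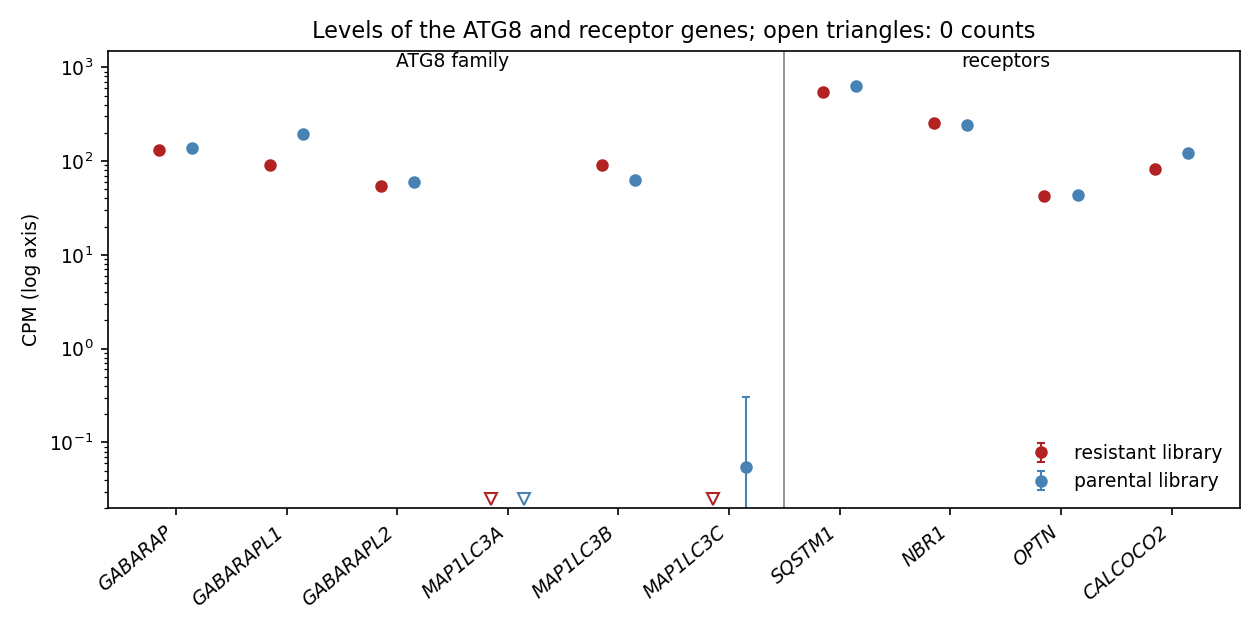
Level of each member in CPM (log axis) in the resistant (red) and parental (blue) library, with exact two-sided Poisson 95% intervals, except for counts of 0, which are open triangles without an interval. GABARAPL1 stood at 90.0 CPM in the resistant and 195 CPM in the parental library, MAP1LC3A had 0 counts in both and MAP1LC3C had 0 and 1.

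The other GABARAP genes differed little. GABARAP, the founding member of the branch, first known as a binding partner of a GABA receptor, had 2209 counts in the resistant and 2476 in the parental library. Its 132 and 137 CPM gave 0.964-fold with an interval that holds equality (0.910 to 1.02). GABARAPL2, also called GATE-16, an ATG8 protein with a role in Golgi traffic, had 917 counts in the resistant and 1089 in the parental library. It was at 0.910-fold (0.833 to 0.995). Both ratios lay within the middle 50% of measured genes, which had log2 ratios from -0.15 to 0.16 around a median of -0.0018. GABARAP shares exons with AC120057.2, which had 56 counts in the resistant and 68 in the parental library, and the log2 ratio of the sum was -0.05.

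MAP1LC3B encodes LC3B, the ATG8 protein most used as a marker of autophagosomes, and was higher in the resistant library. The gene (ENSG00000140941; chromosome 16, 87383995 to 87404779, plus strand) had 1511 counts in the resistant and 1144 in the parental library, or 90.1 and 63.1 CPM. The fold was 1.43 (1.32 to 1.54) and the log2 ratio 0.51, and 6.37% of measured genes had a ratio as high or higher. Counts on its near-identical copy MAP1LC3B2 were few, at 133 in the resistant and 128 in the parental library, and the log2 ratio of both genes together was 0.48. FBXO31, a ubiquitin ligase gene whose exons overlap those of MAP1LC3B on the opposite strand, was itself at 2.37-fold (2.08 to 2.70), with 44.2 CPM in the resistant and 18.7 CPM in the parental library. The sources used here do not say whether the counting used strand, and the part of FBXO31 reads in the value of MAP1LC3B was not tested.

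The remaining LC3 genes of the list were at or near 0. MAP1LC3A, which encodes a close relative of LC3B, had 0 counts in both libraries, and MAP1LC3C had 0 in the resistant and 1 in the parental library. A count of 0 allows up to 0.179 CPM in the resistant and 0.166 CPM in the parental library, the worth of 3 counts, taken as a one-sided limit. Of the listed ATG8 genes, those detected in these libraries were thus GABARAP, GABARAPL1, GABARAPL2 and MAP1LC3B. MAP1LC3B2, the copy of MAP1LC3B outside the list, had 133 counts in the resistant and 128 in the parental library.

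**Figure D2:**
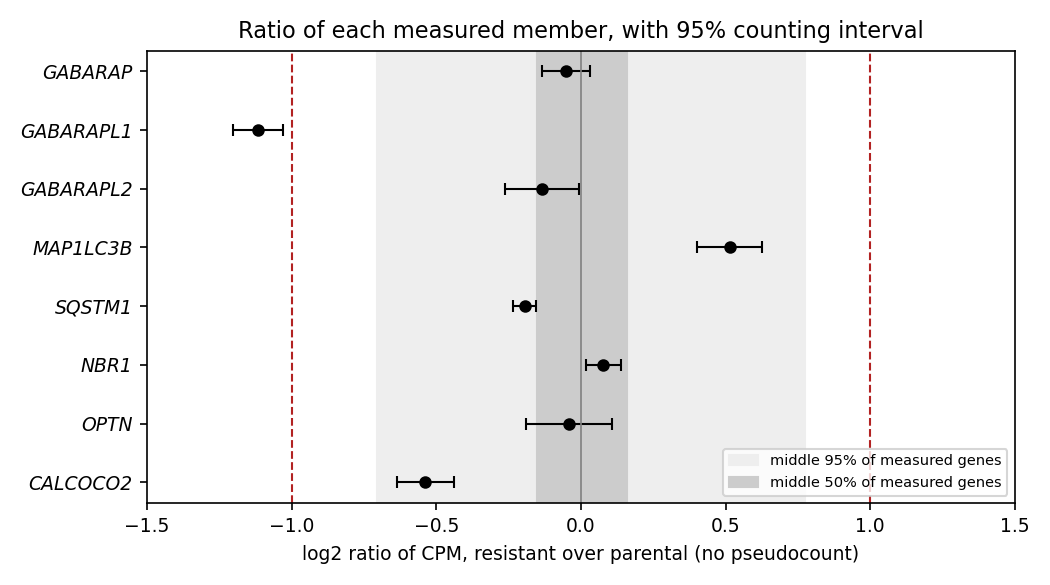
Log2 ratio of CPM, resistant over parental, of the 8 measured members with exact 95% counting intervals. Grey bands hold the middle 50% and 95% of 14686 measured genes and dashed lines mark a 2-fold difference. GABARAPL1 lies beyond the lower line, CALCOCO2 and MAP1LC3B lie outside the inner band on either side, and SQSTM1 lies just outside it.

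The makeup of the counts on the listed ATG8 genes differed between the libraries. GABARAPL1 made up 24.6% of 6146 ATG8 counts in the resistant library (95% Wilson interval 23.5 to 25.6) and 42.9% of 8247 in the parental library (41.8 to 44.0). MAP1LC3B made up 24.6% in the resistant (23.5 to 25.7) and 13.9% in the parental library (13.1 to 14.6). Per kilobase of merged exons the share of GABARAPL1 was 19.1% in the resistant and 34.2% in the parental library. By counts GABARAPL1 was the leading ATG8 gene in the parental library and GABARAP in the resistant library, but the change of leader depends on the length used. Per kilobase of merged exons GABARAP led in both, with 50.5% in the resistant and 43.1% in the parental library, and it led in both by the deposited FPKM. Per kilobase of main transcript GABARAP led in the resistant library with 37.5%, and GABARAPL1 led in the parental library with 37.4%.

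Ratios between genes of the same library do not depend on scaling. For each count on MAP1LC3B there were 0.999 counts on GABARAPL1 in the resistant and 3.09 in the parental library, a ratio of 0.323 (0.293 to 0.357). This pair sets the lowest ratio of the detected ATG8 genes against the highest. For each count on GABARAPL1 there were 1.46 counts on GABARAP in the resistant and 0.700 in the parental library, a ratio of 2.09 (1.92 to 2.27). The balance of GABARAP to GABARAPL2 was 2.41 in the resistant and 2.27 in the parental library, and the interval of its ratio held equality (0.953 to 1.18). Summed, the 3 GABARAP genes were at 0.705-fold (0.680 to 0.732), while all listed ATG8 genes other than GABARAPL1 were at 1.06-fold (1.02 to 1.11).

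**Figure D3:**
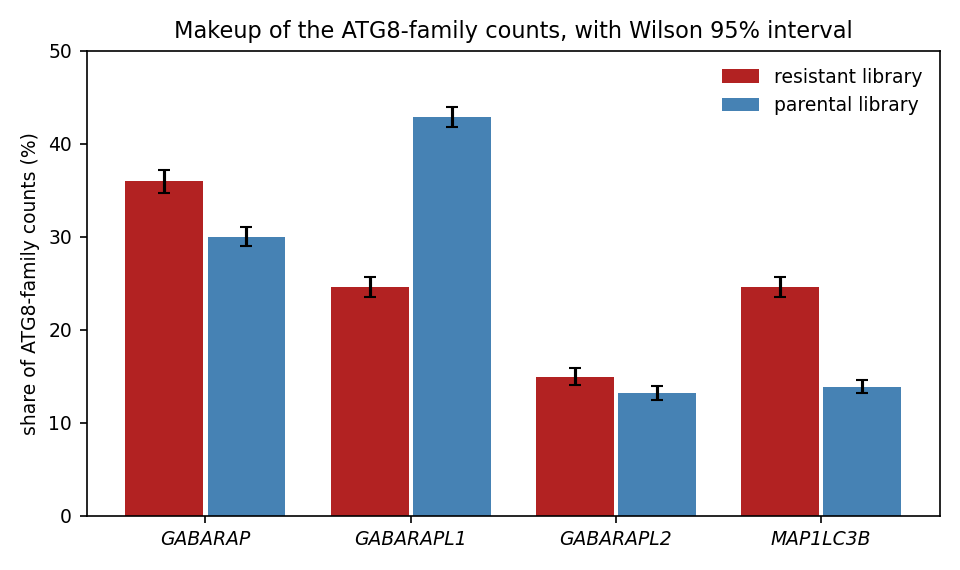
Share of the counts on the listed ATG8 genes that fell on each detected one in the resistant (red) and parental (blue) library, with Wilson 95% intervals. The share of GABARAPL1 is 24.6% in the resistant and 42.9% in the parental library, and that of MAP1LC3B is 24.6% and 13.9%.

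Among the receptors, CALCOCO2 differed most. CALCOCO2, also called NDP52, a receptor for invading bacteria and damaged mitochondria, had 1395 counts in the resistant and 2189 in the parental library, or 83.2 and 121 CPM. The fold was 0.689 (0.644 to 0.737) and the log2 ratio -0.53, and 4.72% of measured genes had a ratio as low or lower. No exon of the gene (ENSG00000136436; chromosome 17, 48830988 to 48866522, plus strand) overlaps another gene of the deposited table.

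SQSTM1, which encodes p62, the receptor of ubiquitinated protein aggregates, was the most abundant member. The gene (ENSG00000161011; chromosome 5, 179806398 to 179838078, plus strand) had 9146 counts in the resistant and 11317 in the parental library. Its 546 and 625 CPM gave 0.874-fold (0.850 to 0.898), and 20.4% of measured genes had a ratio as low or lower. The overlapping genes MRNIP and MGAT4B were at 1.07-fold (0.951 to 1.21) and 0.822-fold (0.770 to 0.876). The log2 ratio of SQSTM1 was -0.19 alone and -0.20 with these added.

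NBR1, a receptor that shares the domain plan of SQSTM1 and also serves the turnover of peroxisomes, had 4259 counts in the resistant and 4364 in the parental library. It was at 1.05-fold (1.01 to 1.10). OPTN, which encodes optineurin, a receptor of damaged mitochondria and bacteria, had 713 counts in the resistant and 793 in the parental library, and its ratio of 0.972 had an interval that holds equality (0.877 to 1.08). Summed, the 4 receptors were at 0.899-fold (0.880 to 0.918). For each count on CALCOCO2 there were 3.05 counts on NBR1 in the resistant and 1.99 in the parental library, a ratio of 1.53 (1.41 to 1.66). The balance between these 2 receptors thus differed by more than counting error, on a scale that no normalisation touches. This pair sets the highest receptor ratio against the lowest, so it is the widest of the receptor pairs and restates the single ratios.

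Past a smaller log2 ratio of 0.32 in either direction lay 3 of 8 measured members, where 23.7% of measured genes did. GABARAPL1 and CALCOCO2 were lower and MAP1LC3B was higher by that much, as were 11.1% and 12.6% of measured genes. All 8 measured members reached 1 CPM in both libraries, so none passed the filter through 1 library alone. Their median log2 ratio was -0.09, against -0.0018 over all measured genes.

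Levels can be set beside each other between genes only per length. As CPM per kilobase of merged exons, SQSTM1 came first at 71.3 in the resistant and 81.6 in the parental library, and GABARAP came second at 58.2 and 60.3. OPTN came last of the 8 measured members, at 8.28 in the resistant and 8.52 in the parental library. GABARAPL1 was in place 4 at 22.0 in the resistant library and in place 3 at 47.8 in the parental library. GABARAPL2 at 18.0 and MAP1LC3B at 17.0 were the only neighbours in the order of the resistant library whose counting intervals overlapped, and no neighbours overlapped in the parental library. The middle of this order depends on the length used. With the main transcript as length, GABARAPL1 stood second in the parental library, and with the deposited FPKM it stood in place 5. The length implied by its parental count, FPKM and library total was 15708 bases, against 4086 bases of merged exons. That implied length was worked out here and is longer than the span of the gene. SQSTM1 stayed first and OPTN last of the measured members on all 3 scales in both libraries. With 2 libraries, no likeness of pattern between genes could be measured.

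The promoter of GABARAPL1 is shown in part because this gene alone passed the 2-fold difference. In the 300 bases around its start in RefSeq's table (GRCh38.p14), the only match to the motifs searched was the cAMP response element, in capitals.
GABARAPL1 promoter: ggctcgcggggTGACGTCAcagcccgacgc
The stretch lies at chr12:10212836-10212865 on the plus strand, and the motif begins 30 bases before the RefSeq start, inside the gene as GENCODE 29 draws it. Motifs were searched on both strands after the sequence had been read: CACGTG (E-box, the core bound by TFEB), TGACGTCA (cAMP response element), TGANTCA (AP-1) and GTAAACA (forkhead). They occur in 7.26%, 1.85%, 7.71% and 3.42% of 35116 promoters of the same length. Of the other members with an entry, 1 forkhead match was found in CALCOCO2 and none elsewhere. MAP1LC3A had no entry in the table. A match describes letters and does not show binding.

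Most genes that make and attach the ATG8 proteins lay within a log2 ratio of 0.32. Of 81 other genes of the pathway, 79 were measured. By 2-fold 1 was lower and none higher, and past a log2 ratio of 0.32 in size 5 were lower and 6 higher, with a median log2 ratio of -0.03. Over all measured genes 2.3% were past the first and 23.7% past the second of these differences in either direction. In the list of ATG8 conjugation enzymes and ATG4 proteases 1 of 11 measured genes was past 0.32. This was ATG16L1, the scaffold that places the conjugation enzyme on the membrane, at 1.28-fold (1.13 to 1.45) with 540 counts in the resistant and 456 in the parental library. ATG3, the enzyme that hands ATG8 proteins to the lipid, was at 1.20-fold (1.10 to 1.303), and ATG4B, the main ATG8 protease, at 1.20-fold (1.06 to 1.36). ATG7, the activating enzyme, was at 0.980-fold (0.848 to 1.13) and ATG5 at 0.982-fold (0.906 to 1.06), both with intervals that hold equality.

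None of the 5 genes of the ULK kinase complex, which starts autophagy, and none of the 8 genes of the lipid kinase complex that follows it was past a log2 ratio of 0.32 in size. Of all measured genes 23.7% were past it. ULK1 was at 0.922-fold (0.887 to 0.958) and ULK2, which had the largest difference of its list, at 0.839-fold (0.719 to 0.978). ATG13 was at 0.896-fold (0.833 to 0.964). RUBCN, an inhibitor of the lipid kinase complex, was at 0.798-fold (0.674 to 0.943), ATG14 at 0.859-fold (0.789 to 0.934) and BECN1 at 1.07-fold (0.969 to 1.18). The log2 ratio of RUBCN was -0.31 with 1 CPM added to both values, while its plain fold lies just past that limit. In the list of membrane supply, ATG9A, a lipid scramblase of the seed vesicles, was at 0.753-fold (0.694 to 0.817). WDR45, a lipid-binding adaptor gene, was at 0.747-fold (0.690 to 0.809), and it shares exons with PRAF2, which had 504 counts in the resistant and 928 in the parental library. The log2 ratio was -0.41 for WDR45 alone and -0.54 for the sum.

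TOLLIP, an adaptor that also serves as an aggregate receptor, was the only other pathway gene past 2-fold. It had 201 counts in the resistant and 478 in the parental library, a fold of 0.455 (0.384 to 0.537) and a log2 ratio of -1.08. It was within 2-fold when 1 was added to the deposited FPKM and with a pseudocount of 5 CPM. The deposited FPKM themselves were 0.759 in the resistant and 1.68 in the parental library. Among 18 other receptors STBD1, the glycogen receptor, was at 1.52-fold (1.18 to 1.97), but summed with the read-through gene FAM47E-STBD1 its log2 ratio was 0.08. TAX1BP1, a relative of CALCOCO2, was at 0.985-fold (0.943 to 1.03). The 18 genes had a median log2 ratio of -0.09.

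Among the 10 measured partners of the receptors, 2 genes were lower and 2 higher by a log2 ratio past 0.32. Of all measured genes 11.1% were lower and 12.6% higher by that much. NFE2L2, which encodes NRF2, the factor that SQSTM1 protein frees from KEAP1 and that in turn drives SQSTM1 transcription, had 973 counts in the resistant and 2003 in the parental library. It was at 0.525-fold (0.486 to 0.567), and its log2 ratio was -0.92 alone and -0.87 summed with the overlapping AC019080.1. KEAP1, the adaptor that targets NRF2 for degradation, was at 1.45-fold (1.33 to 1.59), with 1191 counts in the resistant and 885 in the parental library. TRIM16, a gene of the response to damaged lysosomes, was at 0.602-fold (0.547 to 0.663). It shares exons with AC005324.3, and its log2 ratio was -0.72 alone and -0.64 for the sum. Its close copy TRIM16L had 549 counts in the resistant and 564 in the parental library, and reads shared between the copies leave some uncertainty. CSNK2A1, a kinase that phosphorylates SQSTM1, was at 1.59-fold (1.49 to 1.69). This value is also uncertain because of its near-identical copy CSNK2A3, which had 652 counts in the resistant and 697 in the parental library. TBK1, the kinase of OPTN and SQSTM1, was at 1.05-fold (0.958 to 1.15).

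Genes of autophagosome fusion had a median log2 ratio of -0.03 over 13 measured members. VPS39, a subunit of the tether of late endosomes and lysosomes, was at 1.46-fold (1.35 to 1.59), and PLEKHM1, an adaptor that binds ATG8 proteins, at 1.36-fold (1.14 to 1.61). None of the 6 transcription factor genes was past a log2 ratio of 0.32 in size, where 23.7% of all measured genes were. MITF was at 1.20-fold (1.14 to 1.26), TFEB at 1.08-fold (0.858 to 1.36) and TFE3 at 0.974-fold (0.912 to 1.04).

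**Figure D4:**
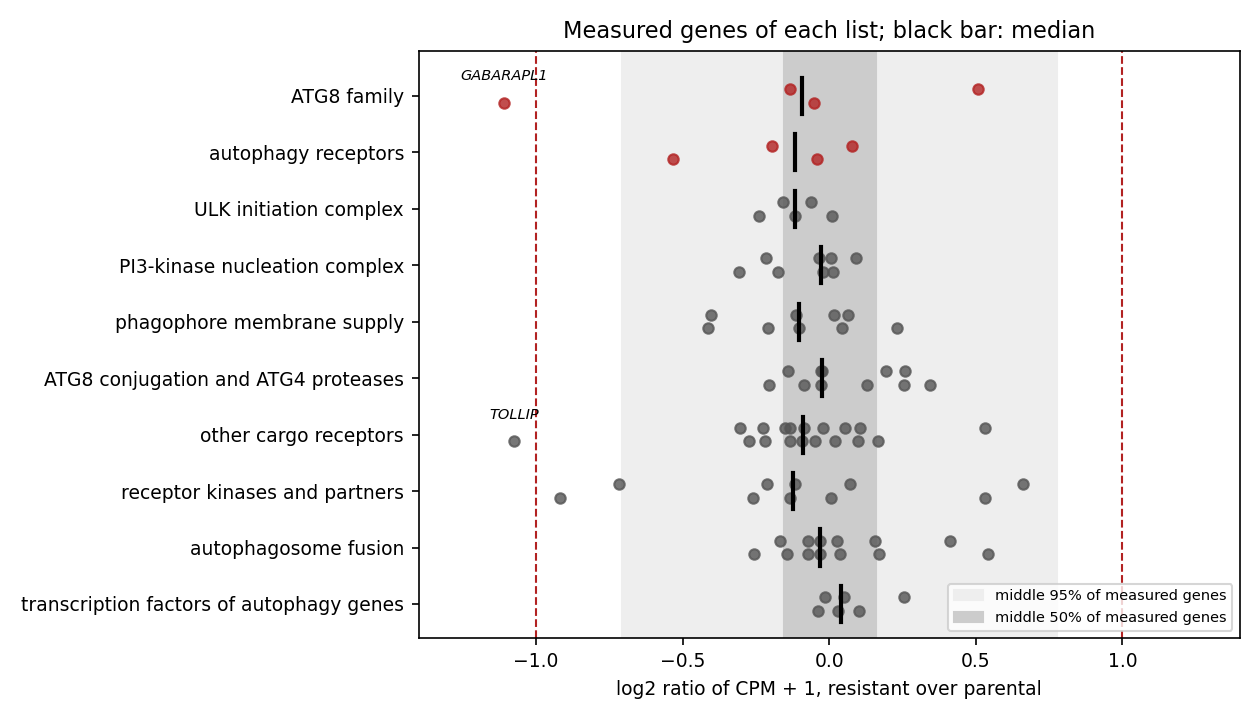
Log2 ratio of CPM plus 1, resistant over parental, of the measured genes of the ATG8 family and receptors (red) and of 8 pathway lists (dark grey), with a black bar at each median. Bands hold the middle 50% and 95% of measured genes, and only GABARAPL1 and TOLLIP lie past the dashed line at a 2-fold lower value.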

How the data were processed

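Messenger RNA of 1 resistant and 1 parental culture was measured. The deposited tables hold whole-number counts per gene, per the file headers, and FPKM, a value scaled to a length and the library total. Per the submitters' processing notes, bcl2fastq 2.19, HISAT2 2.0.4 and StringTie 1.3.0 were used on GRCh38. Neither the annotation release nor the use of strand is stated in these sources. The deposited comparison gives log2 fold changes with a p-value and q-value per gene. It sets 1 library against 1 library, so only its fold changes and calls are cited.

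Counts were scaled to CPM with TMM factors (edgeR 4.0.16, R 4.3.3; 0.997 resistant, 1.00 parental), with no model fitted. A fold is the plain quotient of both CPM, and its 95% interval (exact, Clopper-Pearson) is that of the 2 counts given their sum. Log2 ratios add 1 CPM to both values. The calculation was tested on simulated data. PCR copies are not independent molecules, so intervals and floors cover counting error only. Exons came from GENCODE 29, in which 50111 of 50868 identifiers were found, 47499 of them with identical coordinates. The main transcript of a gene was its APPRIS principal one, with CCDS entries and longer coding sequence preferred. All members were named, as were the 2 largest ratios of each pathway list, every list gene past 2-fold and a fixed set of reference genes. CSNK2A1 and the markers other than those of hepatocytes were named after their values were seen. The members and lists were chosen with earlier results of these data known. Alternatives covered scaling with DESeq2 1.42.0 size factors and others, pseudocounts, filters, deposited FPKM, shared exons and near-identical copies.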

Additional observations from a re-analysis of the deposited data

How the results depend on the processing

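No paired analysis was possible because each group has 1 library, and for the same reason no replicate could be left out. Over 14 alternative settings, 2 of them chosen after seeing the data (no pseudocount, and sums over overlapping genes on either strand), the members past 2-fold numbered 1 and those past a log2 ratio of 0.32 in size 3 wherever the counts were recomputed. The log2 ratio of GABARAPL1 ranged from -1.13 to -1.004, that of CALCOCO2 from -0.55 to -0.48 and that of MAP1LC3B from 0.46 to 0.71. The value of -1.004 came from the deposited FPKM with 1 added to both values. Without that addition, the authors' log2 fold change of GABARAPL1 was -1.13. The value of 0.71 came from the sum with FBXO31. Median log2 ratios of all measured genes lay between -0.02 and -0.0018 over the scalings.

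Some counts over the pathway lists moved. When 1 was added to the deposited FPKM and with a pseudocount of 5 CPM, 0 other receptors and 0 pathway genes in all were past 2-fold. In both settings 0 conjugation genes were past 0.32. With 1 added to the deposited FPKM, 1 fusion gene was past 0.32. In the list of the lipid kinase complex, 1 gene was past 0.32 with DESeq2 size factors, without mitochondrial genes and with a pseudocount of 0.1 CPM. With a filter at 10 CPM, 1 other receptor was past 0.32. Without genes that share exons, those past 0.32 were 1 gene of membrane supply, 1 other receptor, 2 partners of receptors and 7 pathway genes in all. In the last 2 settings fewer genes were counted. In the others the cause was not tested. Of 449 values recomputed, 432 stayed within their counting interval or within 1.5 times the count. That share says little about robustness, because the scalings differed little and counts that stayed at 0 were included as unmoved. Variation between cultures, which 1 library per group cannot show, is the main limit on every ratio.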
